A study of Homo sapiens with 35 samples.

Results

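PHLDA3, RRAD and GDF15 are stress-inducible genes whose mRNAs were present in RPMI-8226 cells before a pulse of carfilzomib. On every day after it their means were at most 2.16% of those of day 0, though RRAD still had counts in every library. These 3 genes are described here with 7 related genes, CDKN1A, MDM2, GADD45A, GADD45B, ZMAT3, TP53INP1 and BTG2. The 7 code for growth-arrest factors and known targets of p53. The set of 10 genes was chosen on the lasting falls of PHLDA3, RRAD and GDF15 in these same libraries, so that the levels of those 3 against day 0 are given as a description without a test. The 7 others were added as related p53 and stress targets, with earlier results of these data known. The table held 19665 protein-coding entries, of which 17999 had a count in any library, and all 10 genes were among them and also passed a filter on low counts (GDF15 and PHLDA3 through the day 0 libraries).

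RPMI-8226 is an established human myeloma cell line, and carfilzomib is an irreversible inhibitor of the proteasome. Cells were exposed to 750 nM carfilzomib for 1 h, and poly(A) RNA was sequenced from 5 subcultures each on day 0, before the drug, and on days 1, 2, 4, 6, 8 and 10 after the pulse, which gives 35 libraries. The subcultures were split from a common culture, so the spread between them is that of parallel flasks of this line. No untreated subculture of a later day was analysed here, so the pulse, the time in culture and the handling of the flasks on day 0 cannot be told apart in a comparison with day 0. By the paper, samples from day 2 on were taken just before a medium change, and density was adjusted on days 6 and 8. Viable cells were fewest on day 2. Comparisons between later days cannot separate such differences from the time since the pulse. Levels are given as CPM, the counts of a gene per 1000000 protein-coding counts of the library, scaled between libraries by TMM factors, and Q is the adjusted p-value of edgeR's quasi-likelihood test, with Q ≤ 0.05 as the threshold. CPM is not corrected for transcript length and serves here to compare the same gene between libraries. The value after ± is the standard error for a log2 change and the SD of the 5 libraries for a CPM or a percent.

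The libraries held 6519392 to 10962890 counts, with a median of 7643975, and the closest libraries of a day correlated at 0.983 across genes (log2 CPM). The plasma cell markers SDC1, XBP1 and JCHAIN were at 305, 441 and 4757 CPM on day 0. These were bulk samples, so fewer cells that express a gene and less mRNA per cell cannot be told apart.

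p53 is a transcription factor that is stabilized by DNA damage and other stresses. Its targets include CDKN1A, which stops the cell cycle, and MDM2, the ubiquitin ligase that marks p53 itself for degradation by the proteasome. Several of the same genes also respond to other stress pathways: GDF15, GADD45A and GADD45B can be induced by ATF4 and CHOP, the transcription factors of the integrated stress response, and BTG2 and GADD45B behave as immediate-early genes in many cells.

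GDF15 codes for a secreted stress cytokine of the TGF-β family that acts on appetite through the receptor GFRAL. The day 0 libraries held 7.31, 5.24, 6.08, 4.61 and 2.50 CPM. All 5 libraries of day 1 had no GDF15 count. Against a limit of 3 counts over the 5 libraries of that day, this was at least 54.5-fold lower than on day 0, where the 5 libraries together had 155 counts. On the later days 1 to 3 counts were found per day, and the ratio of day 0 to the day was 60.7 on day 6 (95% exact interval 20.4 to 297) and 168 on day 10 (29.8 to 6690, from 1 count). In all, the 30 later libraries shared 9 counts, 22 of them had none, and the highest was 0.317 CPM, so that they did not overlap with day 0. The intervals pool the 5 libraries of a day and cover counting error only. They are no test of the fall, on which GDF15 was chosen. GFRAL, the receptor, was at 0.0770 CPM on day 0 and at 0.218 CPM on day 10 (Q = 0.339).

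PHLDA3 codes for a small protein with a pleckstrin homology domain that competes with AKT for membrane lipids and so restrains AKT. It lies on chromosome 1 (201464278 to 201469237, minus strand, GRCh38). Its day 0 libraries were close together at 26.0, 25.1, 26.1, 25.9 and 24.6 CPM, a coefficient of variation of 2.52%. On day 1 they held 0, 0.315, 0.339, 0.172 and 0.169 CPM, that is 6 counts against 746 on day 0. The ratio of day 0 to day 1 was 131 (95% exact interval 60.0 to 359), and over the later days it ran from 101 on day 10 (51.1 to 235) to 438 on day 6 (121 to 3623). These intervals too pool the libraries of a day, cover counting error only and are no test of the fall, on which PHLDA3 was chosen. A single count or none was found in most later libraries: 15 of 30 were at 0, and the highest, replicate 2 of day 4, had 5 counts or 0.788 CPM. By day 10 all 5 libraries again held 1 or 2 counts, which is 1.00% of the day 0 mean.

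RRAD codes for a small GTPase of the RGK family that binds the β subunit of voltage-gated calcium channels and has been linked to glucose uptake. The gene lies on chromosome 16 (66921685 to 66925535, minus strand). Its day 0 values of 198, 188, 201, 197 and 201 CPM again varied little between flasks. On day 1 the libraries held 3.97, 4.56, 3.39, 4.63 and 4.73 CPM, or 2.16% ± 0.290 of day 0 (SD, n = 5). RRAD then stayed between 1.27 and 4.75 CPM through day 8 and was at 1.06, 2.56, 2.26, 2.75 and 1.76 CPM on day 10, or 1.05% ± 0.346 of day 0. The lowest day 0 library was 39.5-fold above the highest of the 30 later libraries. The mean of day 10 was 2.08 CPM and that of day 1 was 4.26 CPM, and the difference passed the threshold (Q = 0.00104). This comparison does not use day 0, but the low levels of the later days were part of the fall on which RRAD was chosen. The means from day 2 to day 8, 3.18 to 3.53 CPM, gave no call in the tests between successive days.

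**Figure D1:**
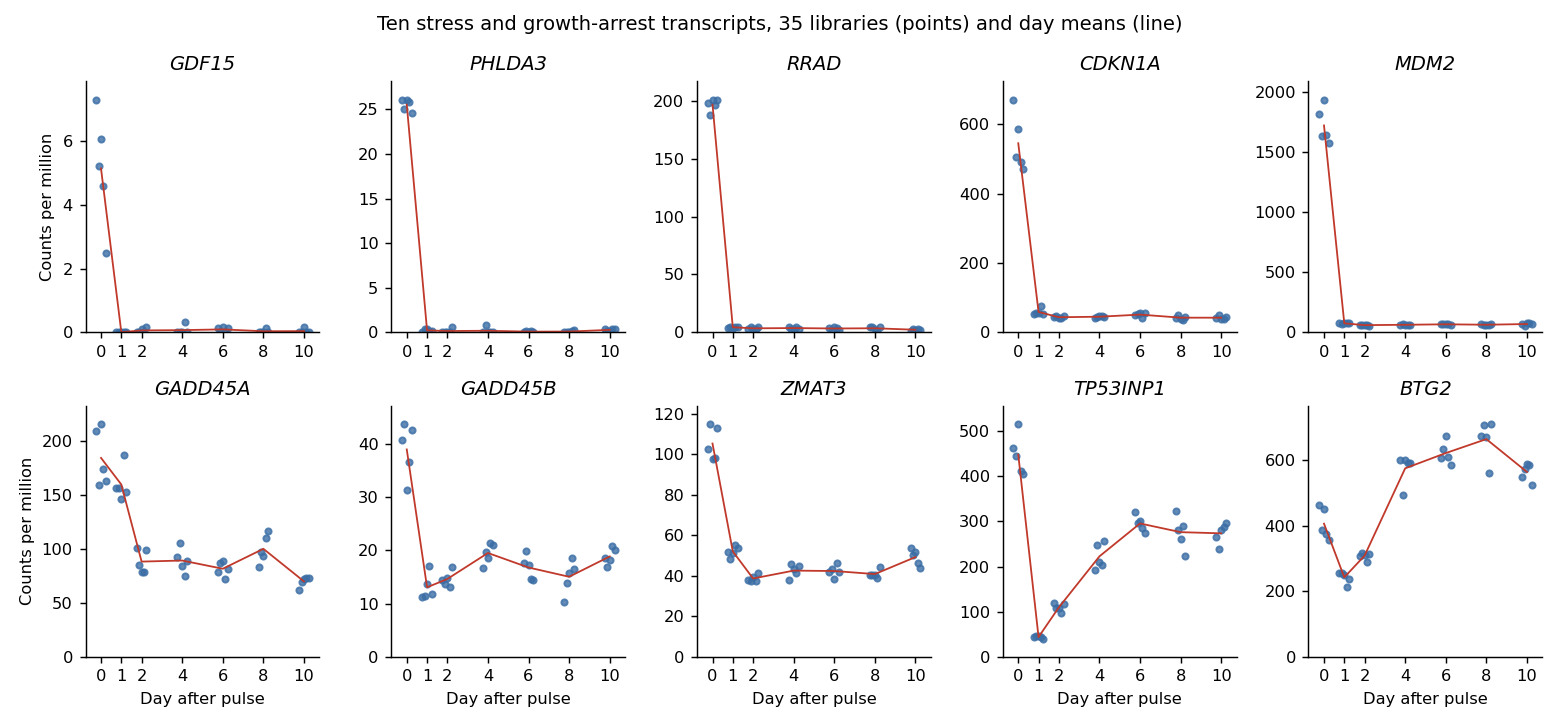
Level of each of the 10 mRNAs in CPM (vertical axes, linear from 0, a separate scale for each gene) by day after the pulse, with 1 point per library (5 per day) and a line through the day means. GDF15, PHLDA3, RRAD, CDKN1A and MDM2 dropped by day 1 and stayed low, TP53INP1 recovered in part with means of 43.8 CPM on day 1 and 296 CPM on day 6, and BTG2 ended above day 0.

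CDKN1A codes for p21, the inhibitor of cyclin-dependent kinases that holds cells before S phase, and the gene lies on chromosome 6 (36676460 to 36687337, plus strand). On day 0 the libraries held 672, 505, 588, 493 and 471 CPM. On day 1 they held 53.7, 54.5, 56.7, 74.8 and 52.1 CPM, and on day 10 they held 41.2, 49.0, 37.3, 37.0 and 44.3 CPM. The 30 later libraries were thus all below the lowest of day 0, which was 6.30-fold above the highest of them. CDKN1A fell by 3.23 ± 0.10 on the log2 scale by day 1 (Q = 2.59e-28) and was lower by 3.71 ± 0.10 on day 10 (Q = 4.68e-29), where it was at 7.65% ± 0.925 of day 0. It fell further from day 1 to day 2 (a log2 difference of -0.43 ± 0.10, Q = 0.000532). From day 2 onwards the day means lay between 41.7 and 50.7 CPM and no step between successive days passed the threshold.

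MDM2, the p53 ubiquitin ligase, lies on chromosome 12 (68808177 to 68845544, plus strand). Its day 0 libraries held 1818, 1633, 1936, 1642 and 1576 CPM. On day 1 the values were 75.3, 67.2, 78.2, 72.0 and 75.1 CPM, which left 4.27% ± 0.243 of day 0, a log2 change of -4.55 ± 0.08 (Q = 1.53e-36). The lowest level was on day 2, at 58.4 ± 2.92 CPM (SD, n = 5), lower than on day 1 (Q = 0.000441). On day 10 the libraries held 67.0, 52.0, 74.8, 76.3 and 68.2 CPM. This was 25.5-fold below day 0 (Q = 1.42e-36), and the difference between days 10 and 1 did not pass (-0.12 on the log2 scale, 95% interval -0.27 to 0.03).

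The windows around a transcription start, from 250 bases before to 50 bases after it, were held by RefSeq (GRCh38.p14) for 6 of the 10 genes, in 10 windows: GDF15, CDKN1A, MDM2, GADD45B, ZMAT3 and BTG2. Those of GDF15, CDKN1A and a downstream start of MDM2 are shown, because these members fell the furthest among those that the table holds. MDM2 is transcribed from an upstream promoter and from a downstream one in the first intron, which is the one p53 acts on. Capitals mark a TATA box (TATAAA, sense strand) or an AP-1 site (TGANTCA, either strand), and the sequences run 5′ to 3′ on the plus strand.
GDF15, chr19:18385908-18386207: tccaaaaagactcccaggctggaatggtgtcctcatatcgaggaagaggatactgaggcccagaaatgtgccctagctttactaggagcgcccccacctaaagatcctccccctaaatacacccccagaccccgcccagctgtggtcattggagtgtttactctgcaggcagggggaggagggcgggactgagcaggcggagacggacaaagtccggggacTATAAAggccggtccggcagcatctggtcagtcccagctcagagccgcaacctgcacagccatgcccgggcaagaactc
CDKN1A, chr6:36678464-36678763: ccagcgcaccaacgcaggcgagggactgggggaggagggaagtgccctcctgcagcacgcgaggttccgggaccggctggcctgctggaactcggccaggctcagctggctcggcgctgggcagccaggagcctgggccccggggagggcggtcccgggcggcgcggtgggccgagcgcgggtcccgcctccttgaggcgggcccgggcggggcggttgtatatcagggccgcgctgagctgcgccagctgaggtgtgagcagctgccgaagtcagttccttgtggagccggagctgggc
MDM2, chr12:68808767-68809066: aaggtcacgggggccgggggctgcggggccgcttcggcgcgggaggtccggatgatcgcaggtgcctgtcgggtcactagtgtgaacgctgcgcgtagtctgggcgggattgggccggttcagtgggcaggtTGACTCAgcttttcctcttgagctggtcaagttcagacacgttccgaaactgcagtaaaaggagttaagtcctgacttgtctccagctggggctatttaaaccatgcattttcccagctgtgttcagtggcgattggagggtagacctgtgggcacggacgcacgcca

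The TATA box of GDF15 begins 29 bases before the start, and that of GADD45B 31 bases before it. Of all 35116 windows of the table, 7.33% hold such a TATA box. The AP-1 site of MDM2 begins 118 bases before the start shown, and 7.71% of all windows hold one. A p53 half-site (by its name), a CRE (TGACGTCA), an ATF4 element (TGATGNAAN) and a CArG box (by its name) were searched on both strands and were not found in the 10 windows, against 6.63%, 1.85%, 3.61% and 1.29% of all windows. This says only that exact matches to these patterns are not within the windows. The search allowed no mismatch, so a p53 site that departs from the pattern would be missed, also in the MDM2 window shown.

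The GADD45 genes code for small acidic proteins that bind p21, PCNA and the kinase MAP3K4. GADD45A (chromosome 1, 67685201 to 67688334, plus strand) was the only member whose day 1 libraries overlapped with day 0. They held 156, 156, 146, 186 and 153 CPM, and those of day 0 held 209, 159, 215, 174 and 163 CPM. The day 1 difference of -0.21 ± 0.09 on the log2 scale lay at the threshold (Q = 0.0474), and it did not pass when any one of replicates 1 and 3 of day 0 or replicates 1, 2, 3 and 5 of day 1 was left out (Q between 0.0604 and 0.187), with the replicate number as a block (Q = 0.0604) or without scaling factors (Q = 0.370). By day 2 the mean was 88.1 ± 10.9 CPM, 1.81-fold lower than on day 1 (Q = 2.13e-10), and on day 10 the libraries held 61.7, 69.6, 71.7, 73.0 and 72.8 CPM, lower than on day 8 by 0.52 ± 0.10 on the log2 scale (Q = 0.000169). GADD45A thus reached its lowest level last, at 37.9% ± 2.55 of day 0.

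GADD45B (chromosome 19, 2476122 to 2478259, plus strand) was lower by day 1 already. Its libraries held 40.6, 43.6, 31.3, 36.5 and 42.5 CPM before the pulse and 11.2, 11.5, 13.7, 17.0 and 11.8 CPM on day 1, a log2 change of -1.58 ± 0.12 (Q = 1.65e-14). It then rose by 0.42 ± 0.13 on the log2 scale between days 2 and 4 (Q = 0.00838) and was at 48.4% ± 4.12 of day 0 on day 10, where the libraries held 16.8 to 20.8 CPM. No later library reached the lowest of day 0. The relative GADD45G was near the limit of detection, at 0.420 CPM on day 0 and 1.53 CPM on day 1 (Q = 0.0165).

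ZMAT3 codes for a zinc finger protein that binds RNA and acts on splicing and mRNA stability downstream of p53. It lies on chromosome 3 (178960121 to 179072215, minus strand). Its day 0 libraries held 103, 115, 98.0, 98.2 and 113 CPM, those of day 1 held 51.7, 48.3, 51.3, 55.1 and 53.9 CPM, and those of day 10 held 53.8, 50.1, 52.0, 46.3 and 44.1 CPM. The fall by day 1 was 2.02-fold (Q = 9.19e-18) and it deepened to 2.73-fold on day 2, with Q = 7.08e-07 for day 2 against day 1. ZMAT3 rose again between days 8 and 10, by 0.27 ± 0.07 on the log2 scale (Q = 0.00463), and day 10 against day 1 did not pass (95% interval -0.21 to 0.05).

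TP53INP1 codes for a stress protein that acts in p53-dependent arrest and in autophagy. It fell on day 1 and then recovered in steps. The day 0 libraries held 463, 446, 515, 412 and 404 CPM, and those of day 1 held 44.7, 46.6, 45.6, 43.2 and 38.7 CPM, a 10.2-fold fall (Q = 1.82e-29). The means then rose to 109.5 ± 8.79 CPM on day 2, 223 ± 28.5 CPM on day 4 and 296 ± 17.4 CPM on day 6, and each of these steps passed the threshold (Q = 9.80e-16, 3.92e-13 and 0.000269). From day 6 to day 10 no further step did, and on day 10 TP53INP1 was at 61.0% ± 5.03 of day 0, with the highest library at 296 CPM. It remained lower than day 0 in all 30 later libraries (Q = 9.02e-10 for day 10).

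BTG2 codes for an antiproliferative protein that recruits the CCR4-NOT deadenylase to mRNAs. It lies on chromosome 1 (203305491 to 203309602, plus strand), and it was the only member that ended above its starting level. It was at 463, 385, 450.4, 374 and 357 CPM on day 0 and fell to 257, 257, 249, 213 and 236 CPM on day 1 (1.68-fold, Q = 1.51e-12). On day 4 the libraries held 599, 494, 599.8, 589.7 and 589.99 CPM, all above the highest of day 0. The 10 libraries of days 1 and 2 lay below all of day 0 and the 20 libraries of days 4 to 10 lay above all of it. The rise was 1.86-fold between days 2 and 4 (Q = 5.53e-14), the highest mean was 664 ± 61.2 CPM on day 8, and day 10 was still 1.39-fold above day 0 (Q = 2.36e-07) though lower than day 8 (Q = 0.0149).

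**Figure D2:**
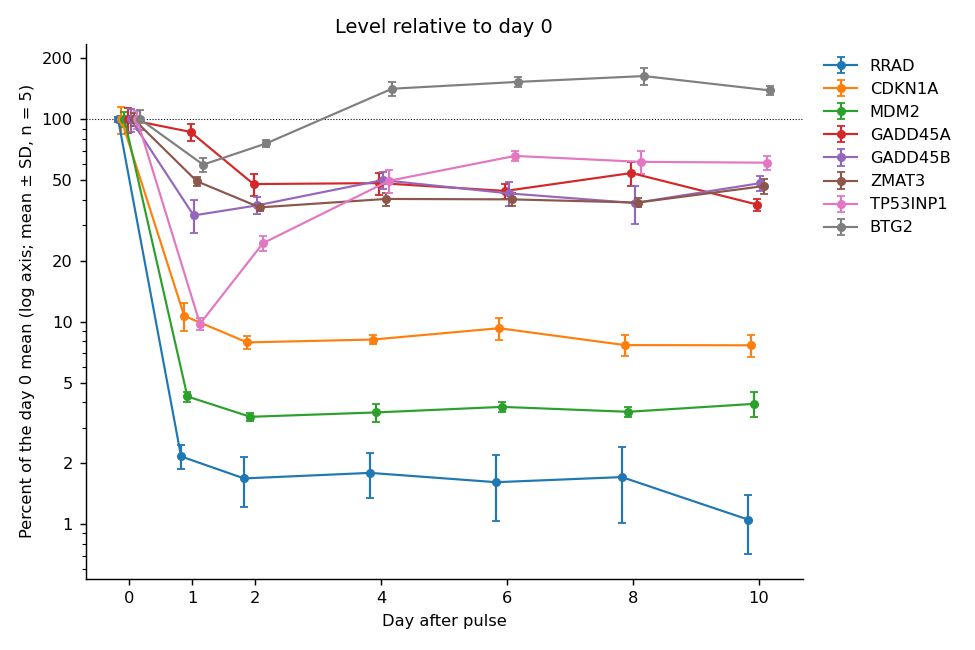
Level of 8 of the mRNAs as a percent of their day 0 mean (vertical axis, log scale; mean and SD of 5 libraries) by day after the pulse. RRAD, MDM2 and CDKN1A stayed between 1.05% and 10.7%, GADD45A, GADD45B and ZMAT3 between 33.5% and 86.6%, TP53INP1 rose from 9.76% to 65.9%, and BTG2 rose from 59.7% to 164%. GDF15 and PHLDA3 are left out because many of their later libraries were at 0.

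Against day 0, the 7 related genes were all lower at Q ≤ 0.05 on days 1 and 2. On each of days 4, 6, 8 and 10 there were 6 lower and 1, BTG2, higher. These genes were added with earlier results of these data known, so the counts are not independent of the choice. PHLDA3, RRAD and GDF15, which were not tested there, lay below the lowest library of day 0 in all 30 later libraries. They were chosen on this fall, so it is no separate result. How many of all entries lie outside the libraries of day 0 in this way is not given here, for these or for the other members. Differences were frequent in the whole transcriptome. Of all 17999 entries tested, 27.3% were lower and 25.4% higher on day 1, 24.4% and 23.2% on day 2, 20.1% and 19.0% on day 4, 17.0% and 17.5% on day 6, 18.6% and 18.2% on day 8, and 15.8% and 16.1% on day 10. The median change of all entries against day 0 was between -0.06 and 0 on the log2 scale.

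Comparisons among later days do not use day 0 and were fitted for all 10, but GDF15 and PHLDA3 had at most 8 counts a day after the pulse, too few for a test to be informative. From day 1 to day 2, CDKN1A, MDM2, GADD45A and ZMAT3 were lower and TP53INP1 and BTG2 higher, where 19.4% of all entries were lower and 20.2% higher. From day 2 to day 4, GADD45B, TP53INP1 and BTG2 were higher and no member was lower (16.7% of all entries lower and 13.9% higher). From day 4 to day 6, TP53INP1 was higher and no other member passed (5.98% lower and 6.09% higher). From day 6 to day 8 no member passed with edgeR, as with DESeq2, and 2 members, CDKN1A and GADD45A, had an unadjusted p under 0.05 in each (1.53% of all entries lower and 1.03% higher). Without replicate 1 of day 8, 1 member was higher at the threshold in that step. From day 8 to day 10, GADD45A and BTG2 were lower and ZMAT3 higher (4.97% lower and 5.08% higher), and without replicate 2 of day 10 or replicate 4 of day 8 the number higher was 2.

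Over the whole span from day 1 to day 10, RRAD, CDKN1A and GADD45A were lower and GADD45B, TP53INP1 and BTG2 higher, beside 24.0% of all entries lower and 23.7% higher. MDM2 and ZMAT3 did not pass. GDF15 had 0 and 1 counts on these days and PHLDA3 had 6 and 8, so a difference was not detectable at this depth. With the library totals alone, without scaling factors, the median of all expressed entries shifted upwards against day 0 (0.11 for day 1, 0.13 for day 2 and 0.11 for day 4, log2), and the share of calls that were higher went from 48.7% to 59.3% on day 2, from 48.6% to 61.6% on day 4, from 50.4% to 60.4% on day 10 and, for day 6 against day 4, from 50.5% to 29.1%. No member changed direction against day 0 under that scaling.

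The files also list other transcript biotypes of the same genes, 11 entries for 8 of the 10 symbols, which were not among the tested entries. Most of them were also highest on day 0. The processed transcripts of MDM2 were at 83.0 ± 13.3 CPM before the pulse, at 3.06 ± 0.924 CPM a day later and at 4.45 ± 0.748 CPM on day 10, and the retained-intron transcripts of MDM2 from 12.3 ± 6.21 to 0.725 CPM on day 1 (22 counts). The retained-intron transcripts of RRAD had 339 counts on day 0, none on day 1 and 1 on day 10. Those of GADD45B went from 10.5 ± 2.87 to 2.25 ± 0.889 CPM on day 1, and the processed transcripts of PHLDA3 from 78 counts to 2. For BTG2, the transcripts marked for nonsense-mediated decay were at 14.2 ± 3.99 CPM on day 0, 9.80 ± 1.99 CPM on day 1 and 22.6 ± 5.66 CPM on day 10, with libraries that overlapped with day 0. Estimates for transcripts that share exons depend on one another, so these entries are not independent measurements.

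**Figure D3:**
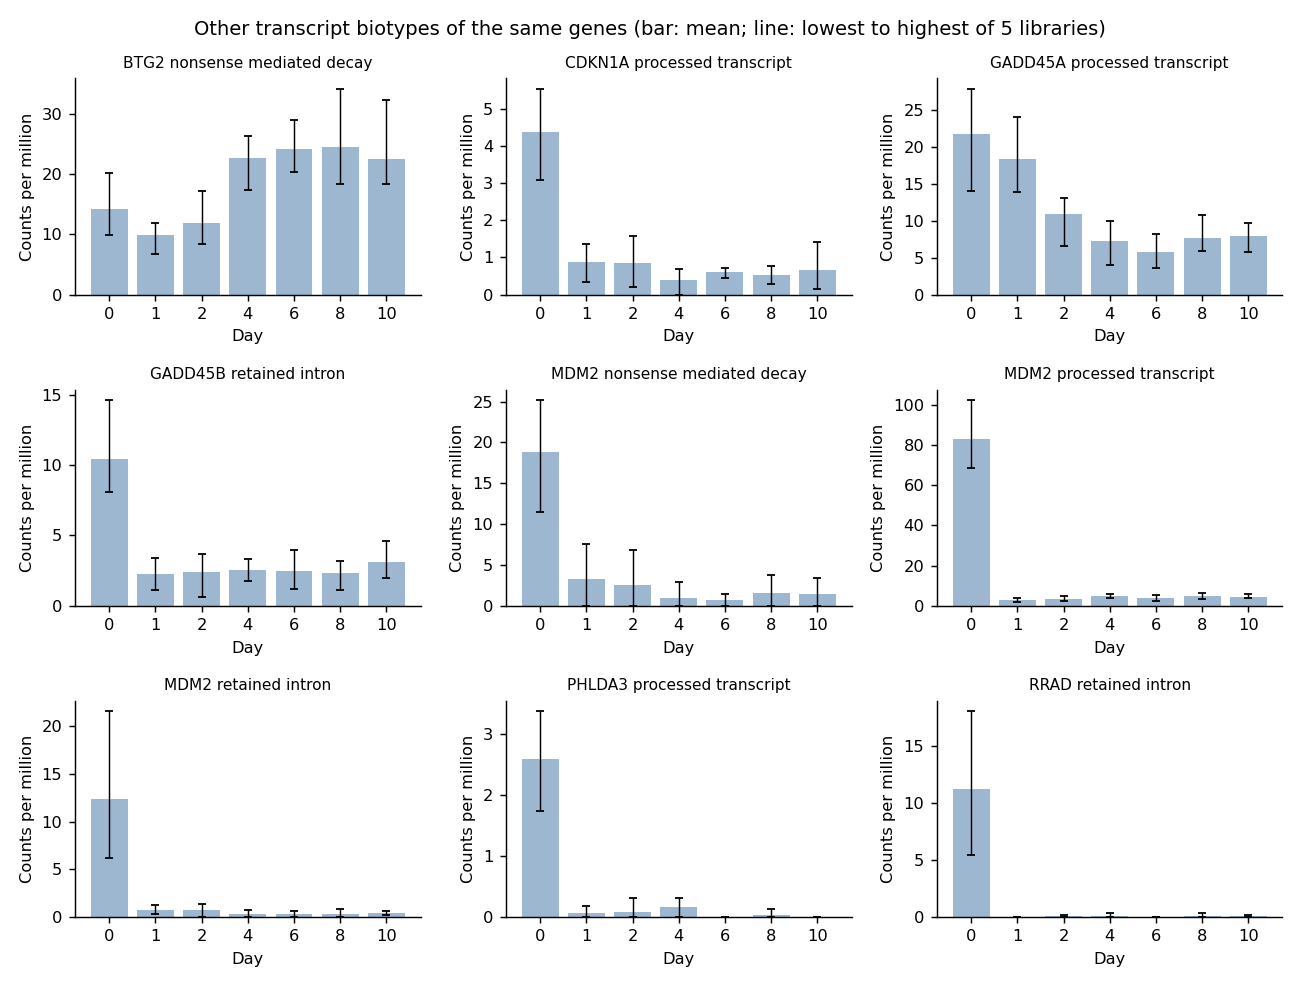
Level of 9 other transcript biotypes of the same genes in CPM (vertical axes, linear from 0) by day; bars are means of 5 libraries and lines run from the lowest to the highest library. The RRAD and PHLDA3 entries and the retained-intron entry of MDM2 were near 0 from day 1 on, and the BTG2 entry was highest from day 4 on. Those with under 50 counts on day 0 are not drawn.

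Some exons overlap with those of other genes. Exons of MDM2 overlap on the opposite strand with those of the carboxypeptidase M gene, which went from 10.3 ± 1.66 before the pulse to 0.257 ± 0.240 on day 1 and 0.639 ± 0.309 on day 10, and those of TP53INP1 with NDUFAF6, which was at 8.17 ± 0.950 CPM on day 0 and 6.55 ± 2.79 on day 1. CDKN1A overlaps with the antisense RNA DINOL. The paper describes a library protocol that keeps the strand. Whether the counting used the strand is not given in the sources used here, so reads of such a pair may not have been told apart. On the same strand, where strand cannot separate reads, exons of PHLDA3 overlap with a lncRNA (ENSG00000224818) and those of MDM2 with a processed pseudogene (ENSG00000256664).

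More of the other known p53 targets were lower than higher after the pulse. The list of 59 held BBC3 and PMAIP1, which code for the death-promoting BH3 proteins PUMA and NOXA, the death receptors FAS and TNFRSF10B, the repair factor XPC and the metabolic regulator TIGAR, and 57 of them had a count. On day 1, 43 of 57 were lower and 5 higher (75.4% and 8.77%, beside 27.3% and 25.4% of all entries), with a median of -1.04 beside -0.06 for all entries. On day 10, 40 were lower and 4 higher (70.2% and 7.02%, beside 15.8% and 16.1%), with a median of -1.05 beside -0.02. Genes at 0 counts on a day, set to their bound against 3 counts, left these medians as they were. BBC3 had the largest fall by the rule on day 1, from 137 ± 8.20 to 8.33 ± 0.415 CPM (a log2 change of -4.04 ± 0.11, Q = 1.15e-29), and it was at 28.5 ± 2.38 CPM on day 10. FAS had the largest on day 10, from 14.4 ± 1.97 to 0.580 ± 0.802 CPM (Q = 2.93e-07). PADI4, which codes for an enzyme that turns arginine into citrulline, had the largest rise on both days but was scarce, from 0.539 ± 0.438 to 2.48 ± 0.691 CPM on day 1 (Q = 0.000327). Its day 10 value of 1.62 CPM (Q = 0.0213) did not pass without replicate 3 or 4 of day 0 or replicate 5 of day 10 (Q = 0.0527, 0.0594 and 0.0563).

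The levels of day 10 lay at different distances from those of day 1. The following examples were picked after their values were seen. TIGAR, which diverts glucose from glycolysis, fell from 84.0 ± 5.49 to 13.2 ± 1.54 CPM on day 1 and further to 5.61 ± 1.25 CPM on day 10 (Q = 8.02e-22). AEN, a nuclease that acts in apoptosis, likewise went from 234 ± 7.24 to 78.9 ± 3.63 and then 41.3 ± 4.80 CPM (Q = 2.04e-28). TNFRSF10B stayed low, at 32.7 ± 9.50 CPM on day 1 and 42.4 ± 5.70 on day 10 from 174 ± 16.2 on day 0 (Q = 2.53e-17). PMAIP1 and SESN1, the latter an inhibitor of mTORC1, came back in part: PMAIP1 went from 68.4 ± 14.3 to 13.0 ± 1.40 and then 33.1 ± 2.58 CPM, and SESN1 from 62.4 to 18.1 and then 39.6 CPM (Q = 8.01e-08 for day 10). APAF1, the scaffold of the apoptosome, rose from 7.17 ± 0.789 to 14.5 ± 2.04 CPM on day 1 (Q = 1.11e-08).

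**Figure D4:**
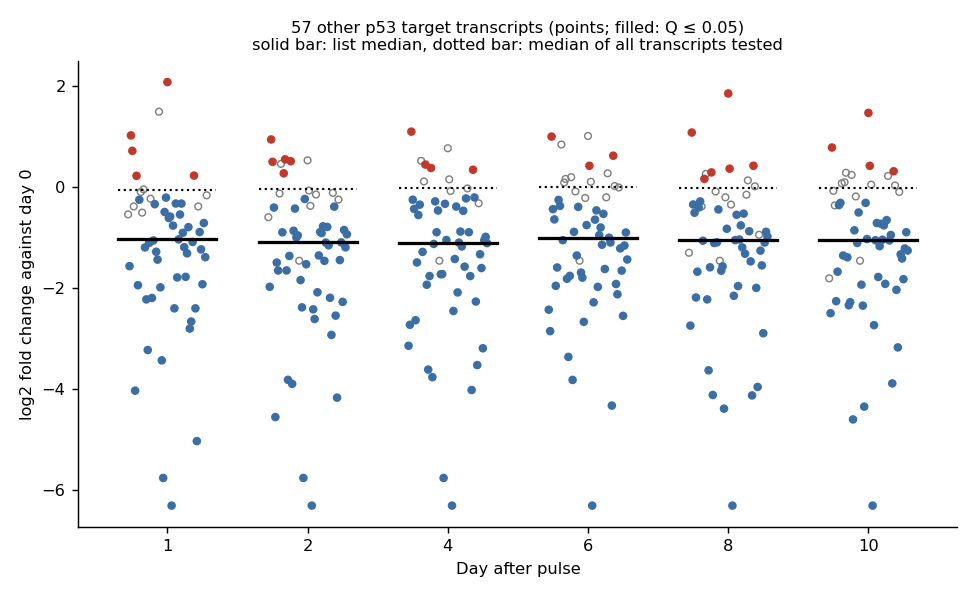
log2 fold change against day 0 (vertical axis) of 57 other p53 target mRNAs on each later day, 1 point per gene, filled where Q ≤ 0.05 (blue lower, red higher); solid bars are list medians and dotted bars the medians of all entries tested. The list medians were -1.04 on day 1 and -1.05 on day 10. The lowest point on each day is PLK2, without a count on any later day, whose fitted value depends on the prior count.

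In the list of 22 genes of p53 regulation, 11 were lower and 7 higher on day 1 (50% and 31.8%, beside 27.3% and 25.4% of all entries), and 5 were lower and 2 higher on day 10 (22.7% and 9.09%, beside 15.8% and 16.1%), with medians of -0.14 and -0.07. MDM4, a partner of MDM2 that inhibits p53, fell from 164 ± 31.5 to 57.8 ± 6.92 CPM on day 1 (Q = 1.54e-13) and was at 138 ± 25.4 CPM on day 10, which did not pass. PPM1D, the phosphatase that dampens p53 signalling and is itself a p53 target, had the largest fall of day 10, from 21.5 ± 4.06 to 7.72 ± 0.926 CPM (Q = 6.48e-07). TP53BP1, which codes for a factor of double-strand break repair, rose from 24.8 ± 4.52 to 78.5 ± 15.8 CPM on day 1 (Q = 1.28e-12) and was at 24.7 CPM on day 10. The kinase gene CHEK1 was higher on day 10, at 27.8 ± 1.99 CPM against 19.4 ± 1.33 (Q = 1.67e-05).

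Relatives of the members gave a mixed picture. Of 17 with a count, 7 were lower and 4 higher on day 1 (41.2% and 23.5%, beside 27.3% and 25.4% of all entries). On day 10, 10 were lower and 2 higher (58.8% and 11.8%, beside 15.8% and 16.1%). The medians of the 2 days were -0.57 and -0.70. PHLDA2, a relative of PHLDA3, fell from 53.4 ± 4.74 to 30.3 ± 4.84 CPM on day 1 and to 10.6 ± 1.04 CPM on day 10 (Q = 6.84e-19). TP53INP2, a relative of TP53INP1 with a role in autophagy, fell from 54.6 ± 1.66 to 13.9 ± 1.95 CPM on day 1 (Q = 1.32e-19) and was at 26.5 ± 2.89 CPM on day 10. Both kinase inhibitors related to CDKN1A went the other way. CDKN1C (p57) rose from 19.9 ± 3.90 to 47.7 ± 6.73 CPM on day 1 (Q = 1.57e-09), and CDKN1B (p27) from 48.1 ± 3.42 to 103 ± 4.38 CPM on day 10 (Q = 8.61e-17).

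Among 29 genes whose products work with those of the members, such as the cyclins and kinases that p21 inhibits and the subunits of the CCR4-NOT complex, 7 were lower and 15 higher on day 1 (24.1% and 51.7%), and 6 were lower and 12 higher on day 10 (20.7% and 41.4%), with medians of 0.22 and 0.13. Of all entries, 27.3% were lower and 25.4% higher on day 1, and 15.8% and 16.1% on day 10. The shares lower of the list were near these, and its shares higher were above them. The cyclin mRNAs went in both directions. CCND1 and CCND2, the D-type cyclins, had the largest falls: CCND1 went from 46.6 ± 4.84 to 23.7 ± 1.87 CPM on day 1 (Q = 5.48e-12), and CCND2 from 1323 ± 27.6 to 628 ± 35.7 CPM on day 10 (Q = 1.13e-21). CCNE1 rose from 3.05 ± 0.941 to 10.1 ± 1.32 CPM on day 1 (Q = 1.41e-09), and CCNA2, the cyclin of S and G2 phase, from 10.3 ± 0.801 to 28.9 ± 4.49 CPM on day 10 (Q = 3.29e-12). PCNA, the DNA clamp that p21 and the GADD45 proteins bind, was lower on both days, at 109 ± 5.37 and 85.7 ± 5.79 CPM from 169 ± 11.8 (Q = 7.69e-15 for day 10).

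Immediate-early genes, and ATF4 and DDIT3 with genes that they induce, were counted as well. Some of these, such as ATF3, SESN2 and DDIT4, are also known p53 targets. Of 22 immediate-early genes, 20 were lower and 0 higher on day 1 (90.9% and 0%, beside 27.3% and 25.4% of all entries). On day 10, 20 were lower and 1 higher (90.9% and 4.55%, beside 15.8% and 16.1%). The medians of the 2 days were -1.84 and -1.45. FOSB fell from 73.5 ± 5.86 to 0.646 ± 0.340 CPM on day 1 (Q = 7.86e-26) and was at 1.10 ± 0.250 CPM on day 10 (Q = 1.99e-24). SRF, the transcription factor that drives many of them, had the smallest fall among those that passed on day 1 (a log2 change of -0.54 ± 0.07, Q = 2.50e-08). KLF2, a factor of cell quiescence, was the gene that was higher on day 10, at 68.5 ± 16.2 CPM against 43.7 ± 7.10 (Q = 0.000647). The summed level of the 22 genes was 2745 to 2937 CPM in the libraries of day 0, 923 to 1007 CPM on day 1 and 1332 to 1404 CPM on day 10, and their part in the falls of the members was not tested.

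The list of 17 ATF4 and CHOP stress genes held ATF4 and DDIT3 themselves and genes that they are known to induce. On day 1, 15 were lower and 1 higher (88.2% and 5.88%, beside 27.3% and 25.4% of all entries). On day 10, 12 were lower and 1 higher (70.6% and 5.88%, beside 15.8% and 16.1%), and the medians of the 2 days were -1.91 and -0.57. The days between did not form a steady course. On day 6, 11 were lower and 5 higher (64.7% and 29.4%, median -0.80), the 5 being CHAC1, NUPR1, VLDLR, STC2 and DDIT4, with log2 changes of 0.59, 1.24, 1.29, 0.24 and 1.64, and on day 8 the median was -1.52, with 13 lower and 2 higher. ATF3, a stress transcription factor, had the largest fall on both days, from 108 ± 20.4 to 13.1 ± 2.87 CPM on day 1 (Q = 5.69e-23) and 16.3 ± 0.829 CPM on day 10 (Q = 8.34e-21). DDIT3, which codes for CHOP, went from 60.8 ± 9.20 to 9.94 ± 1.94 and then 24.6 ± 2.49 CPM (Q = 3.07e-11 for day 10). ATF4 itself went from 856 ± 49.6 to 293 ± 15.1 and then 667 ± 43.7 CPM (Q = 6.38e-07 for day 10). DDIT4, an inhibitor of mTORC1, was the gene that was higher, from 196 ± 12.7 to 254 ± 36.1 CPM on day 1 (Q = 0.0402), a call that was lost with DESeq2, the filter or RLE factors (Q between 0.0579 and 0.0727) and without any one of replicates 1, 2, 3 and 5 of day 0 or of day 1 (Q between 0.0532 and 0.137), and to 502 ± 30.8 CPM on day 10 (Q = 1.83e-09). The summed level was 3117 to 3358 CPM on day 0, 1067 to 1122 CPM on day 1 and 2334 to 2681 CPM on day 10, and its part in the falls of the members was not tested.

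**Figure D5:**
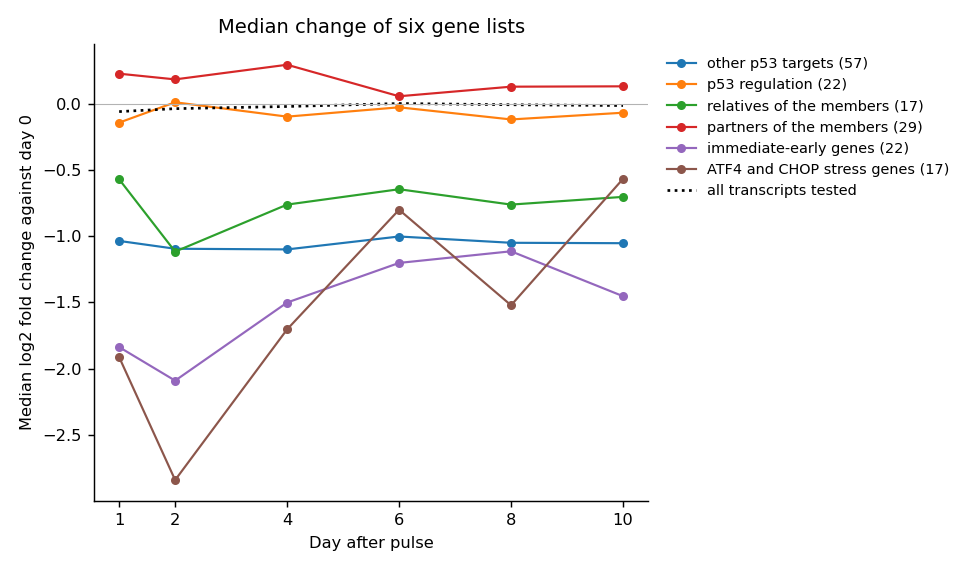
Median log2 fold change against day 0 (vertical axis) of 6 gene lists on each later day, with the number of genes with a count in brackets; the dotted line is the median of all entries tested. The other p53 targets were at -1.04 on day 1 and -1.05 on day 10, the ATF4 and CHOP genes were lowest at -2.84 on day 2 and went through -0.80 (day 6) and -1.52 (day 8) to -0.57 by day 10, and the genes of p53 regulation stayed near the dotted line.

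The patterns most like those of the 3 genes chosen on their fall came from mRNAs that were highest on day 0. Over the 35 libraries, and as a description, PHLDA3 was most like PTP4A1 (Pearson's r = 0.978 of log2 CPM), IER5 (0.945) and ICOSLG (0.941), RRAD was like ICOSLG (0.950) and PTP4A1 (0.950), and GDF15 was like IER5 (0.950) and GNAO1 (0.949). The 35 points share 7 days, and the correlations rest on the gap between the 5 libraries of day 0 and the rest. PTP4A1, a phosphatase, was at 384 ± 12.7 CPM on day 0 and between 90.3 and 112 CPM in the later day means. IER5, an immediate-early gene, was at 410.4 ± 16.0 CPM and then between 104 and 130.2 CPM. PTP4A1 and IER5 were also in the list of other p53 targets.

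The markers of the cell type moved as well. Of 9 plasma cell markers 6 were lower and 0 higher on day 1 (66.7% and 0%, beside 27.3% and 25.4% of all entries). On day 10, 2 were lower and 4 higher (22.2% and 44.4%, beside 15.8% and 16.1%). The summed level of the 9 markers was 6371 to 7281 CPM on day 0, 2590 to 2946 CPM on day 1 and 7122 to 8516 CPM on day 10. TNFRSF17 (BCMA) fell from 55.2 ± 3.85 to 14.5 ± 1.94 CPM on day 1 (Q = 4.18e-19) and SDC1 (CD138) had the smallest fall that passed (Q = 1.78e-09). On day 10 SLAMF7 was lower, at 13.5 ± 1.93 CPM against 23.9 ± 2.01 (Q = 8.37e-08), and MZB1 higher, at 597 ± 21.7 against 417 ± 17.5 (Q = 1.16e-08). Most of the sum came from JCHAIN, at 4757 CPM on day 0, and the part of these markers in the falls of the members was not tested.

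Of 12 markers of other cell types with a count, the summed level was 90.3 to 114 CPM on day 0 and between 91.3 and 135 CPM in all later libraries, nearly all of it from the epithelial markers EPCAM and KRT8. EPCAM was at 58.7 ± 10.2 CPM on day 0 and 78.9 ± 4.33 on day 1 (Q = 2.51e-05), and KRT8 fell from 37.3 ± 4.82 to 13.7 ± 2.51 CPM on day 1 and was at 30.1 ± 2.95 on day 10 (Q = 0.0244, lost without replicate 1, 3 or 5 of day 0 or replicate 2 or 5 of day 10). The T cell marker CD3E went from 3.35 ± 1.06 to 0.754 ± 0.316 CPM on day 1 (Q = 6.66e-07) and HBA1 from 0.613 ± 0.528 to 2.69 ± 1.24 CPM on day 10 (Q = 0.00354). CD3D and HBB had no count on day 0, CD2, HBB and LYZ none on day 1, and CD2, CD3D and LYZ none on day 10. The part of these markers in the results was not tested.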

How the data were processed

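Poly(A) RNA of 35 libraries was quantified by the authors with Kallisto 0.44.0 against GENCODE 28 (GRCh38.p12), with an adjustment for GC content, and summarised with tximport. The deposited values are estimated counts, given as whole numbers per symbol and transcript biotype and not normalised for library size. No reads were realigned.

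Samples were grouped by day from the labels. Protein-coding entries with any count were tested with edgeR 4.0.16 in R 4.3.3 (glmQLFit, glmQLFTest; TMM factors 0.929 to 1.08; day as a factor over all libraries; Benjamini-Hochberg adjustment over 17999 entries), in 12 comparisons of days. Standard errors were computed from the log2 fold change and the F statistic. The method was tested on simulated data first. P-values measure the spread between subcultures of a common culture. Depth and the low counts of GDF15 and PHLDA3 limit precision there.

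The members and lists were chosen with earlier results of these data known. Beside the 10 members, the text names in each list the highest and lowest log2 fold change at Q ≤ 0.05 with a mean log2 CPM above 0, on days 1 and 10, and the 3 genes most like PHLDA3, RRAD and GDF15 by Pearson correlation. Some items that the rule or lists would name are not reported here. SDC1, XBP1 and JCHAIN, GFRAL, GADD45G, PCNA, DDIT3, ATF4, the overlapping genes and PLK2 were named after their values were seen. Alternatives were a filter on low counts, RLE factors, no scaling factors, a block for replicate number, a larger prior count, only the 2 days compared, DESeq2 1.42.0, and leaving out each library in turn (for the lists, this was chosen after seeing the data). Positions are from GENCODE 44 and promoter windows from RefSeq.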

Additional observations from a re-analysis of the deposited data

Results flagged for a closer look

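Of 70 groups of 5 libraries (10 mRNAs on 7 days), 9 held a library that stood apart from the other 4 by Dixon's criterion. In 5 of the 9 it was the only library of its day with a count, which meets the criterion by construction, so the rate of about 1 in 20 groups that chance flags does not apply to them. These were GDF15 in replicate 4 of day 4 (0.317 CPM, 2 counts), replicate 4 of day 8 (0.141 CPM, 1 count) and replicate 3 of day 10 (0.162 CPM, 1 count), and PHLDA3 in replicate 5 of day 2 (0.629 CPM, 4 counts) and replicate 2 of day 4 (0.788 CPM, 5 counts). Without these the day had no count of the gene.

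Replicate 4 of day 1 was the highest library of its day for CDKN1A (74.8 CPM, the next at 56.7) and for GADD45A (186 CPM, the next at 156). BTG2 was low in replicate 2 of day 4 (494 CPM, the next at 589.7) and in replicate 4 of day 8 (559 CPM, the next at 669). None of these libraries lay beyond the day 0 range on the other side from its group. For GADD45A, replicate 4 of day 1 lay inside the day 0 range of 159 to 215 CPM. It was the library through which day 1 overlapped with day 0.

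BTG2 was below day 0 in every library of day 1 and above it in every library of day 10. The difference of day 10 minus day 1 was 1.22 on the log2 scale (SE 0.07, Q = 5.88e-19 by edgeR).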

How the results depend on the processing

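Over the alternatives other than leaving out a library, 305 of the counts of genes stayed within 1.5 times and 7 moved; for single genes, 757 values kept direction and call, 14 moved, 6 lost their call, and 0 changed direction. The 14 were fitted fold changes of GDF15 and PHLDA3 against day 0 under a larger prior count or DESeq2. The 6 were GADD45A on day 1, without scaling factors and with the block, DDIT4 on day 1, and KRT8 on day 10 without scaling factors (Q = 0.0881). Without scaling factors, the genes of p53 regulation on day 10 were 3 lower and 4 higher, and 2 ATF4 and CHOP genes were higher on day 10, as with only the 2 days compared. With DESeq2, the filter on low counts or RLE factors, 0 ATF4 and CHOP genes were higher on day 1. The calls between days 6 and 8 over all genes went from 275 lower and 186 higher to 163 and 91 with only the 2 days compared, to 289 and 308 with DESeq2 (from 40.3% to 51.6% higher) and to 310 and 294 with the filter, and between days 4 and 6 from 1076 and 1096 to 1765 and 723 without scaling factors. The cause was not tested.

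Leaving out each library in turn gave 0 to 1 members higher from day 6 to day 8, 1 to 2 from day 8 to day 10, 3 to 5 other p53 targets higher on day 1 (3 without replicate 5 of day 0), 1 to 3 regulators of p53 higher on day 10 (1 without replicate 3 of day 0), and 0 to 1 ATF4 and CHOP genes higher on day 1 (0 without replicates 1, 2, 3 or 5 of day 0 or day 1). The other counts stayed within 1.5 times. Of single genes, 22 values lost their call (GADD45A and DDIT4 on day 1, PADI4 and KRT8 on day 10) and 9 moved, all of them fitted changes of GDF15 (days 4, 8 and 10) and PHLDA3 (days 2, 4, 6 and 8) when a library that held the day's few counts was left out.

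Deviations of same-numbered libraries of different days had a median correlation of 0.0023 over 105 pairs, 2 of them over 0.1. For different numbers the median was -0.0008 over 420 pairs, 7 of them over 0.1. Of 35 libraries, 12 correlated best with their own number. The number to be met without pairing was not computed, so whether the numbers mark the same subculture over the days is not settled here. With the replicate block, GADD45A on day 1 (-0.21 on the log2 scale) did not pass (Q = 0.0604), and no other call of a member changed. Depth limits GDF15 and PHLDA3 after the pulse, where single counts decide the ratio.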
